A study of Mus musculus with 4 samples.

Results

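The genes described here are 9 regulators of interferon and cytokine signalling, the interferon regulatory factors Irf1, Irf2, Irf7 and Irf9, the signal transducers Stat2 and Stat3, the kinase Jak1 and the inhibitors Socs1 and Socs3. They were picked by symbol, with no threshold on their values, though with earlier results of these data known, from a deposited table of 50600 genes, and all 9 were found there, each on 1 row. They were measured by RNA sequencing of total RNA in cells of the mouse mammary tumour line Py8119, which the labels give as C57BL/6 in strain, mammary gland in tissue and mesenchymal-like in phenotype. There were 2 libraries of cells overexpressing Mtss1, which encodes a membrane-bending and actin-binding scaffold protein, and 2 libraries of control cells, titled hygro. Both were grown in serum-containing IMDM without treatment. The sources used here do not say how the populations were made, whether each is a clone or a pool, or whether replicate libraries were prepared from separate cultures. The p-values therefore reflect the spread between replicate libraries alone, and that spread may be technical.

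Interferons and cytokines of the interleukin 6 family bind receptors that carry JAK kinases on their inner side. The kinases phosphorylate STAT proteins, which enter the nucleus. STAT2 and IRF9 act there within the complex ISGF3, which binds interferon-stimulated response elements, while dimers of STAT3 bind GAS sites. IRF1 and IRF7 are transcription factors that are themselves induced by interferon, IRF2 competes with IRF1 for the same sites, and SOCS proteins are induced by STATs and shut the receptors and kinases off.

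Values were read as CPM, read counts scaled to about 1000000 per library. That unit was assigned from the values, and the sources used here do not say what scaled the columns, whose sums differ from 1000000. The depth recovered from the steps between values was 15594209 and 16656638 reads with Mtss1 overexpression and 20617788 and 22081639 reads in control. Mtss1 itself read 118 and 119 CPM with overexpression, against 54.5 and 50.5 CPM in control. Of 9 mesenchymal markers all 9 passed the expression filter of at least 1 CPM in at least 2 libraries. Of 7 mammary epithelial markers 2 passed it, Krt8 and Krt18, and Epcam, Krt5 and Krt19 were at 0 in all 4 libraries. The markers that passed also differed between the groups. Krt8 fell to 367 CPM with overexpression, against 585 CPM in control (means), and Krt18 to 234 CPM, against 286 CPM in control. Of the mesenchymal markers 3 rose and 5 fell, with Sparc at 1301 CPM with overexpression and 573 CPM in control, and Pdgfrb at 3.45 CPM with overexpression and 9.17 CPM in control. The part of these marker differences in the results on the regulators was not tested. Since bulk RNA was measured, fewer cells of a type and less RNA per cell cannot be told apart in anything that follows.

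Mtss1-overexpressing cells had less RNA for the interferon-pathway factors Stat2, Irf9 and Irf7 and for the inhibitor Socs1, and more RNA for Irf1, Irf2 and the inhibitor Socs3. Stat3 and Jak1 did not pass the test. In counts, 3 of the 9 genes rose and 4 fell at an adjusted p under 0.05 (limma on log2(CPM + 1), adjusted by Benjamini-Hochberg over all 12510 tested genes). The same test called 66.1% of all tested genes, 31.9% higher and 34.2% lower, and calls for 7 of 9 regulators are not read as a result about this group beyond that share. All 9 passed the expression filter in both groups. The median log2 fold change of the 9 was 0.02, against -0.01 over all tested genes. What separates the members is size: the change of Socs1 was matched or exceeded by 7.91% of tested genes and that of Socs3 by 26.5%, whereas the changes of Irf1, Irf2, Irf9, Stat2 and Irf7 were matched or exceeded by 41.8% to 68.0%.

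**Figure D1:**
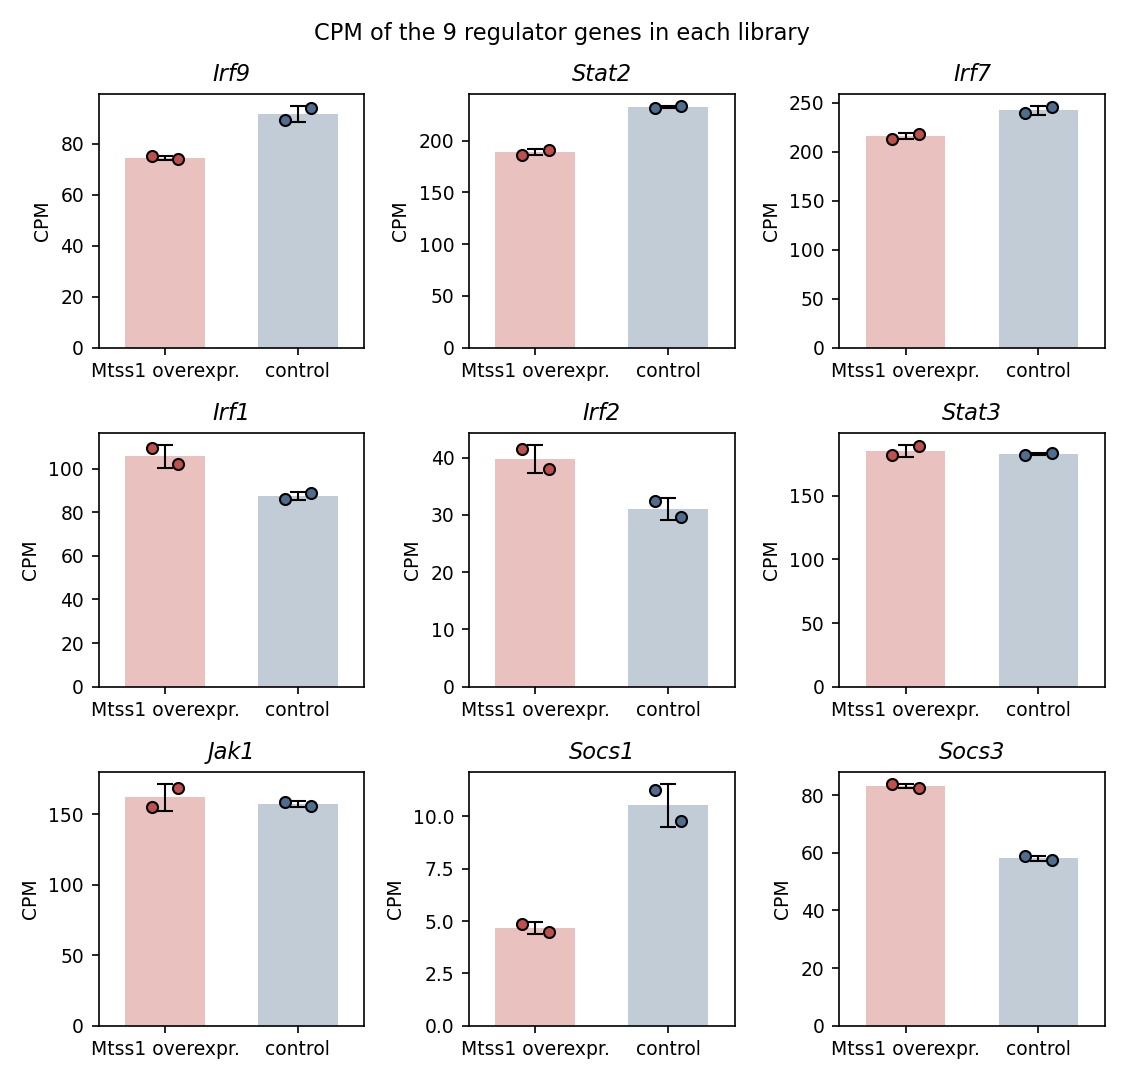
CPM (vertical axis, from 0, own scale per gene) of the 9 regulators in Mtss1-overexpressing (Mtss1 overexpr., red, left) and control (blue, right) cells; points are the 2 libraries of a group, bars the mean and error bars the SD. The groups do not overlap for 7 genes, as is the case for 81.6% of all tested genes, and for Stat3 and Jak1 they do.

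**Figure D2:**
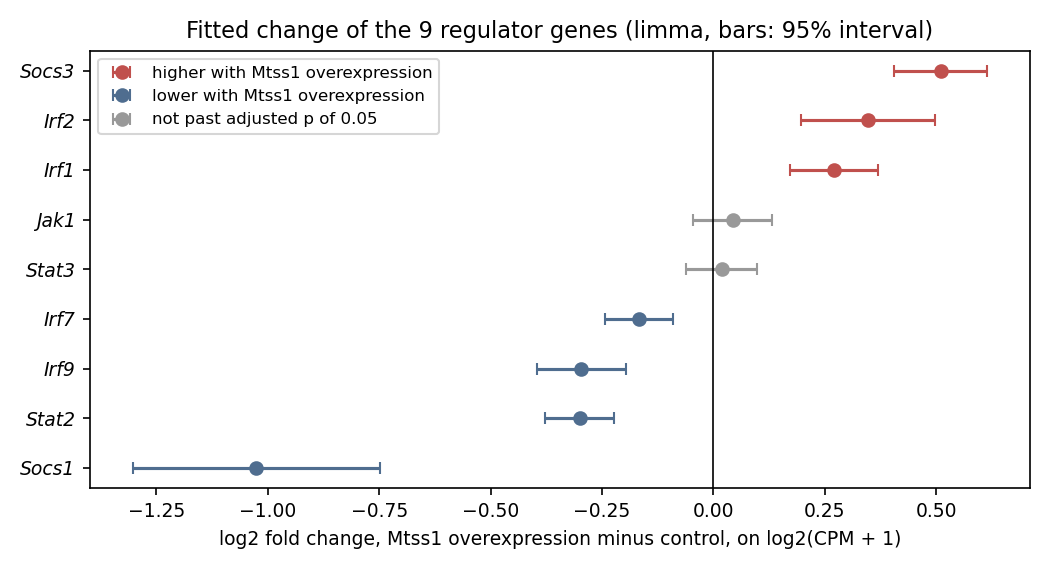
Fitted log2 fold change of each regulator, Mtss1 overexpression minus control, on the log2(CPM + 1) scale with its 95% interval (limma). Socs1, at -1.03, lies apart at the low end and Socs3, at 0.51, is the highest.

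Among the factors of the type I interferon response, Stat2 read 187 and 191 CPM in the Mtss1-overexpressing libraries, against 232 and 234 CPM in the control libraries. The groups did not overlap, as was the case for 81.6% of all tested genes, and the difference was several times the spread within either group. Stat2, the ISGF3 subunit that supplies the main activation domain, fell by 0.30 on the log2 scale (SE 0.04, limma adjusted p = 2.5e-07). Irf9, which gives ISGF3 its DNA specificity, read 75.1 and 73.9 CPM with Mtss1 overexpression, against 89.4 and 94.0 CPM in control. Again both overexpression libraries were below both control libraries. Its log2 fold change was -0.30 ± 0.05 (SE, limma adjusted p = 1.2e-05), so these ISGF3 subunits fell by nearly the same amount, to 0.811 of the control mean for Stat2 and 0.812 of it for Irf9. The ratio of Stat2 to Irf9, each per kilobase of transcript, was 1.39 and 1.45 with overexpression and 1.45 and 1.39 in control, with overlapping ranges. Irf7, which drives the induction of type I interferon genes and is induced by ISGF3, read 213 and 218 CPM with Mtss1 overexpression, against 239 and 245 CPM in control. Its fall was the smallest of the called changes, with a log2 fold change of -0.17 ± 0.04 (SE, limma adjusted p = 4.0e-04). In the annotation (GENCODE M21, mm10) Stat2 (ENSMUSG00000040033) lies on the plus strand of chromosome 10 from 128270559 to 128292849. Irf9 (ENSMUSG00000002325) is on the plus strand of chromosome 14 from 55603571 to 55610030, and Irf7 (ENSMUSG00000025498, minus strand) spans 141262706 to 141266481 on chromosome 7. Irf9 shares 123 bases on the same strand with Rnf31, the gene of the ubiquitin ligase HOIP, which moved the other way, with 101 and 89.7 CPM with overexpression and 60.4 and 66.6 CPM in control (named after its values were seen). Irf7 shares 45 bases with Phrf1 on the opposite strand, which did not pass the test. The sources used here do not say how reads in these stretches were divided.

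The stretch of 250 bases before the RefSeq start of Stat2 is shown because it holds a match to the core of the interferon-stimulated response element (GAAA, any 2 bases, GAAA), searched on both strands and found here on the minus strand at position -222 from the start. The region is chr10:128270248-128270497 (GRCm38.p6, plus strand), and the capitals mark the match.
Stat2: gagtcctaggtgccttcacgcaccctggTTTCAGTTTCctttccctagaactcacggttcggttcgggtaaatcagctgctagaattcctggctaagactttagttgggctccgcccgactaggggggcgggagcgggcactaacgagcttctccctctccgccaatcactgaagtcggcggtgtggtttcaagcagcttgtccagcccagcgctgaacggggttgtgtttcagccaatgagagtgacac
Promoter windows from 250 bases before to 50 bases after a start were given for all 9 genes, 11 windows in all, and 3 motifs were searched on both strands. The response element core was in 3.44% of the 32851 windows of all genes. No window of Irf7, Irf9, Stat3 or Jak1 held a match to any of the 3 motifs, which says only that these letters are not in those windows.

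Irf1 and Irf2, an activator and its competitor at the same sites, both rose. Irf1 read 109 and 102 CPM with Mtss1 overexpression, against 86.0 and 88.7 CPM in control. Irf2 read 41.5 and 38.0 CPM in the overexpression libraries, against 32.4 and 29.7 CPM in control. For both genes the 2 overexpression libraries were above the 2 control libraries, and the difference between group means exceeded the SD within groups, which was 5.32 and 1.92 CPM for Irf1 and 2.52 and 1.91 CPM for Irf2 with overexpression and in control. The log2 fold change was 0.27 ± 0.05 for Irf1 (SE, limma adjusted p = 3.3e-05) and 0.35 ± 0.07 for Irf2 (limma adjusted p = 2.2e-04). The ratio of Irf1 to Irf2 per kilobase was 3.08 and 3.14 with overexpression and 3.10 and 3.49 in control, so the ranges overlapped and the balance of the pair could not be told apart between the groups. Irf1 (ENSMUSG00000018899) lies on the plus strand of chromosome 11 from 53770014 to 53778374, where it shares 907 bases with Gm17334 on the opposite strand, a gene at 0.504 to 0.833 CPM. Irf2 (ENSMUSG00000031627) lies on the plus strand of chromosome 8 from 46739732 to 46847458.

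The upstream stretches of this pair are shown because each holds both a GAS match, TTCNNNGAA, a palindrome, and a match to the NF-kB motif, the binding sequence of the family to which p65 belongs, the protein named in the series title. A GAS match was in 8.30% and an NF-kB match in 8.46% of the windows of all genes. In Irf1 the GAS match TTCCCCGAA starts at position -90 and the NF-kB match GGGGAATCCC, which reads as the motif on both strands, at position -13. In Irf2 a response element core starts at -241, the GAS match TTCCGAGAA at -224 and the NF-kB match GGGGATTTCC at -17. The regions are chr11:53769764-53770013 for Irf1 and chr8:46739495-46739744 for Irf2 (GRCm38.p6, both plus strand), and the capitals mark the matches.
Irf1: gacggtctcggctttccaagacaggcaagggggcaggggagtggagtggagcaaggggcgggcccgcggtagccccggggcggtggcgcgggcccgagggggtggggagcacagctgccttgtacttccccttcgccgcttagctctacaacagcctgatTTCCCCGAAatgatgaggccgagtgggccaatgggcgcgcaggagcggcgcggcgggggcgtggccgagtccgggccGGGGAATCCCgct
Irf2: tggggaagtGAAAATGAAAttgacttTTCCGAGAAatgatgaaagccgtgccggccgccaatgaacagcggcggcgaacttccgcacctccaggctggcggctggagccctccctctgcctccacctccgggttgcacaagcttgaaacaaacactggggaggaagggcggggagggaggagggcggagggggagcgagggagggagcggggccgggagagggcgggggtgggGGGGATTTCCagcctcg
A match is a stretch of letters and does not show that a factor binds there.

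Stat3 and Jak1 were highly expressed in both groups. Stat3, the main STAT downstream of the gp130 receptor chain, read 182 and 189 CPM with Mtss1 overexpression, against 182 and 183 CPM in control. Jak1, a kinase shared by the interferon and gp130 receptors, read 156 and 169 CPM with overexpression, against 159 and 156 CPM in control. The groups overlapped for both genes. The log2 fold change of Stat3 was 0.02 with a 95% interval from -0.06 to 0.10 (limma adjusted p = 0.68), and that of Jak1 was 0.04 with an interval from -0.05 to 0.13 (limma adjusted p = 0.39). Each interval excludes a change as large as that fitted for Irf1. Both values are slightly negative without overexpression 2, at -0.01 and -0.02. The ratio of Stat3 to Stat2 per kilobase was 0.948 and 0.960 with overexpression and 0.764 in both control libraries, which did not overlap. With Stat3 nearly level, this ratio restates the fall of Stat2. Stat3 (ENSMUSG00000004040, minus strand) spans 100885098 to 100939540 on chromosome 11 and shares 72 bases with Stat5a on the other strand. Jak1 (ENSMUSG00000028530, minus strand) spans 101152367 to 101265282 on chromosome 4.

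The inhibitors moved in opposite directions. Socs1, which blocks JAK kinases and is the chief brake on interferon signalling, read 4.85 and 4.46 CPM with Mtss1 overexpression, against 11.3 and 9.80 CPM in control. It was the least abundant of the 9 genes, and these values rest on 77 and 75 reads with overexpression and on 230 and 213 reads in control. It fell to 0.442 of the control mean, with a log2 fold change of -1.03 ± 0.13 (SE, limma adjusted p = 5.9e-07) on the log2(CPM + 1) scale, which understates the change of a gene this low. Among all tested genes 8.27% were called with at least a 2-fold change on that scale. Socs3, which binds gp130 and the JAKs attached to it and is itself induced by STAT3, read 83.8 and 82.7 CPM with overexpression, against 58.8 and 57.5 CPM in control. The SD within a group was 0.823 CPM with overexpression and 0.888 CPM in control while the means lay 1.43-fold apart, a log2 fold change of 0.51 ± 0.05 (SE, limma adjusted p = 7.7e-09). The ratio of Socs3 to Socs1 per kilobase was 19.7 and 21.1 with overexpression, against 5.95 and 6.69 in control. On the log2 scale, here without the 1 added to CPM, the groups differed by 1.69. That these ratios did not overlap follows from the opposite changes of Socs1 and Socs3 and is no further result. Socs1 (ENSMUSG00000038037, minus strand) spans 10782240 to 10785536 on chromosome 16, and Socs3 (ENSMUSG00000053113, minus strand) spans 117966079 to 117970047 on chromosome 11.

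The stretches before the RefSeq starts of both inhibitors are shown because they differ in the motif they hold. That of Socs3 lies inside the GENCODE span given above, downstream of the GENCODE start, whereas that of Socs1 lies just outside its span. The window of Socs1 has overlapping response element cores at positions -83 and -77, GAAAGAGAAA and GAAACCGAAA, which share 4 bases. That of Socs3 has a GAS match at -154, TTCTTAGAA, and no response element core. The regions are chr16:10785537-10785786 for Socs1 and chr11:117969367-117969616 for Socs3 (GRCm38.p6, both minus strand, printed along that strand), and the capitals mark the matches.
Socs1: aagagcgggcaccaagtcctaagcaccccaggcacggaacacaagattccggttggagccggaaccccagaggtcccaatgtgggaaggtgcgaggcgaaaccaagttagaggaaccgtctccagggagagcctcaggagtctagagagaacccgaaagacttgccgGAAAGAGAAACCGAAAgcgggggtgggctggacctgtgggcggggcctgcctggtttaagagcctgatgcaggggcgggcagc
Socs3: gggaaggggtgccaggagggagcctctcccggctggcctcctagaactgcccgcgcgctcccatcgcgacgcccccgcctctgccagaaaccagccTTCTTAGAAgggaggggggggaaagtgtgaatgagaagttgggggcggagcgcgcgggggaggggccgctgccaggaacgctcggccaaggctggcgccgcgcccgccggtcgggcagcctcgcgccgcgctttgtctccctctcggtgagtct
Among the 4 genes that fell, Stat2 and Socs1 had a response element core, and among the 3 that rose, Irf2 had one. GAS matches were in the windows of Irf1, Irf2 and Socs3, all 3 of which rose. With 9 genes this is a description and no test of it was made. The windows follow RefSeq starts. Those of Irf9 and Socs3 lie inside the GENCODE spans, so the bases before the GENCODE starts of these genes were not searched. Window 2 of Irf1 also lies inside its span. The stretches before the RefSeq starts of Irf2, Irf7 and Jak1 run past their GENCODE starts, and the NF-kB match of Irf2 spans that start.

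**Figure D3:**
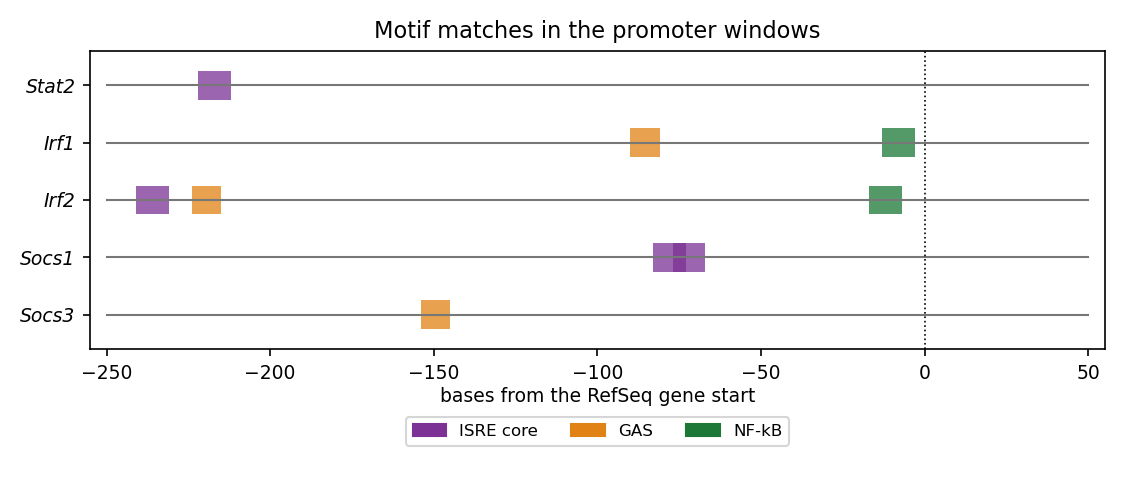
Motif matches (coloured boxes, to scale) in the promoter windows of the 5 regulators that held any, against distance in bases from the RefSeq gene start (dotted line). Socs1 shows a pair of overlapping response element cores and Socs3 a lone GAS match.

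In level per kilobase of the principal transcript, the regulators differed widely. Irf7 was the highest, at a mean of 113 CPM per kilobase with Mtss1 overexpression and 126 in control, and Socs1 the lowest, at 1.60 with overexpression and 3.62 in control. In control the order below Irf7 was Stat2 (53.0), Irf1 (40.9), Stat3 (40.5), Irf9 (37.3), Jak1 (32.1), Socs3 (22.8) and Irf2 (12.4). Irf1 and Stat3 did not differ there beyond their spread, at 40.3 and 41.5 CPM per kilobase for Irf1 and 40.4 and 40.6 for Stat3. With overexpression Irf1 (49.4) stood above Stat2 (43.0), and Irf9 (30.3) below Jak1 (33.1) and Socs3 (32.6). In that group the ranges of Jak1 and Socs3 overlapped. The middle of the order depends on the length used: per kilobase of all annotated exons, the control values of Irf1, Jak1, Socs3, Stat3 and Irf9 lay between 17.0 and 22.0, with Irf7 still the highest and Socs1 the lowest.

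Other genes of the same families were described from lists written from general knowledge of the pathway, also with earlier results known, in which a gene can belong to more than one list. The counts of every list stand beside shares of 31.9% called higher and 34.2% called lower over all tested genes. Of 8 further IRF factors and IRF2 binding proteins, 5 were tested, 1 rose and 3 fell, with a median log2 fold change of -0.22. Irf2bp2, a corepressor that binds IRF2, fell most, to 100 ± 6.75 CPM with Mtss1 overexpression, against 144 ± 4.67 CPM in control (SD, n = 2 each), a log2 fold change of -0.51. Irf3, which acts upstream of interferon induction, rose by 0.29 on that scale, a call that was lost without control 1 (limma adjusted p = 0.092) and with no expression filter (limma adjusted p = 0.055). Without control 1 the log2 fold change of Irf5 was -0.25, against -0.30 with all libraries, and that of Irf2bp1 was -0.21, against -0.02. Irf4 and Irf8 were among those under the filter. Of 8 further STAT factors and JAK kinases, 7 were tested, 1 rose and 3 fell. Without overexpression 2 the number that rose was 2, Jak3 being added (limma adjusted p = 0.032), and it was also 2 with limma-voom and with scaling by column sum. Stat6, which carries interleukin 4 signals, fell to 68.9 ± 2.66 CPM with overexpression, against 144 ± 2.99 CPM in control (log2 fold change -1.06). Stat5a fell by 0.90. Jak2 rose to 87.1 ± 2.36 CPM with overexpression, against 58.4 ± 1.44 CPM in control (log2 fold change 0.57), and Stat4 was at 0 in all 4 libraries.

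Of the inhibitors other than Socs1 and Socs3, all 15 of the list were tested, and 7 of them rose, 2 fell and 6 did not pass, with a median of 0.07. Over all tested genes 31.9% were called higher and 34.2% lower, with a median of -0.01. Pias3, an inhibitor of STAT3 binding to DNA, rose to 51.8 ± 0.630 CPM with Mtss1 overexpression, against 28.2 ± 0.471 CPM in control (SD, n = 2 each, log2 fold change 0.86), followed by Pias2 (0.40) and Socs7 (0.28). The 2 that fell were the phosphatase gene Ptpn6 (-0.93) and Usp18, an interferon-induced protease that restrains the type I receptor, at 162 ± 0.120 CPM with overexpression and 295 ± 5.16 CPM in control (log2 fold change -0.85).

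Receptor genes changed in both directions. Of 14 receptors of interferons, gp130 cytokines and interleukins 4 and 13, 11 were tested, 4 rose, 5 fell and 2 did not pass, with a median of 0.04. Over all tested genes 31.9% were called higher and 34.2% lower. The oncostatin M receptor gene Osmr rose to 52.4 ± 4.50 CPM with Mtss1 overexpression, against 9.41 ± 0.482 CPM in control (SD, n = 2 each), a log2 fold change of 2.36 ± 0.09 (SE, limma adjusted p = 3.4e-16). The interleukin 6 receptor gene Il6ra fell to 15.8 ± 0.385 CPM with overexpression, against 44.8 ± 4.12 CPM in control (log2 fold change -1.45), followed by Il13ra1 (-0.51) and Il10rb (-0.39). Both subunits of the type I interferon receptor rose, Ifnar1 by 0.37 and Ifnar2 by 0.46. Il6st, the gene of gp130, was at 343 and 352 CPM with overexpression and 340 and 337 CPM in control and did not pass the test. With limma-voom Il6st and Ifngr2 were called higher (limma-voom adjusted p = 0.042 and 0.049), so that 6 of the receptors rose.

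Few ligands of these receptors were expressed. Of 13 ligand genes 5 were tested, 1 rose and 2 fell. Lif fell to 57.0 ± 0.112 CPM with Mtss1 overexpression, against 91.6 ± 4.11 CPM in control (SD, n = 2 each, log2 fold change -0.67). Clcf1, another gp130 cytokine gene, fell by 0.65, and Il6 rose by 0.90 at a low level, with 6.11 and 6.07 CPM with overexpression, against 3.18 and 2.44 CPM in control. At 0 in all libraries were 6 ligand genes, Ifng and Osm among them. The interferon beta gene Ifnb1, named after its values were seen, was under the filter, with 9 and 12 reads with overexpression, against 2 and 3 reads in control. Their ratio per unit of depth was 5.42 with a 95% interval from 1.99 to 18.4 for counting error only (exact Clopper-Pearson on pooled reads).

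Target genes of the 3 transcription factor groups went in both directions, and in each of the 3 lists the median was below 0. These counts stand beside shares of 31.9% called higher and 34.2% called lower over all tested genes, and no test of a list was made. Of 28 type I interferon target genes attributed to ISGF3, all were tested, 19 fell, 4 rose and 5 did not pass, with a median of -0.39. With no expression filter 3 rose, Rtp4 being lost (limma adjusted p = 0.071). With limma-voom and with scaling by column sum 5 rose, Oas3 being added, and 19 fell in each of these settings. The rise of Rtp4 was small, with a log2 fold change of 0.15 with all libraries and 0.09 without overexpression 2. The largest falls were in Cmpk2 (log2 fold change -1.68), Mx1 (-1.16) and Isg15 (-1.09). The antiviral genes Rsad2, Mx2 and Oasl1 rose, by 0.64, 0.40 and 0.39. Of 19 IRF1 and interferon gamma targets, 15 were tested, 8 fell, 5 rose and 2 did not pass, with a median of -0.10. With limma-voom 7 of them fell and 7 rose, and with scaling by column sum 7 fell and 6 rose. Cd274, which encodes the checkpoint ligand PD-L1, fell to 12.0 ± 0.0985 CPM with Mtss1 overexpression, against 22.5 ± 0.482 CPM in control (SD, n = 2 each, log2 fold change -0.85). Nlrc5 (-0.74) and the guanylate-binding protein gene Gbp3 (-0.67) fell as well, while Psmb9 of the immunoproteasome (0.47), the cytokine gene Il15 (0.47) and Casp1 (0.44) rose. Icam1, Cxcl9, Cxcl11 and Ciita were under the filter. Of 19 STAT3 targets, 18 were tested, 9 fell, 7 rose and 2 did not pass, with a median of -0.16. Vegfa (-0.98), Junb (-0.56) and Cebpd (-0.50) fell most, and Osmr, which is also a receptor above, Fos (0.52) and Mcl1 (0.39) rose most. Without overexpression 2, and with no expression filter, 4 of these rose, and Fos, Timp1 and Birc5 were no longer called.

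**Figure D4:**
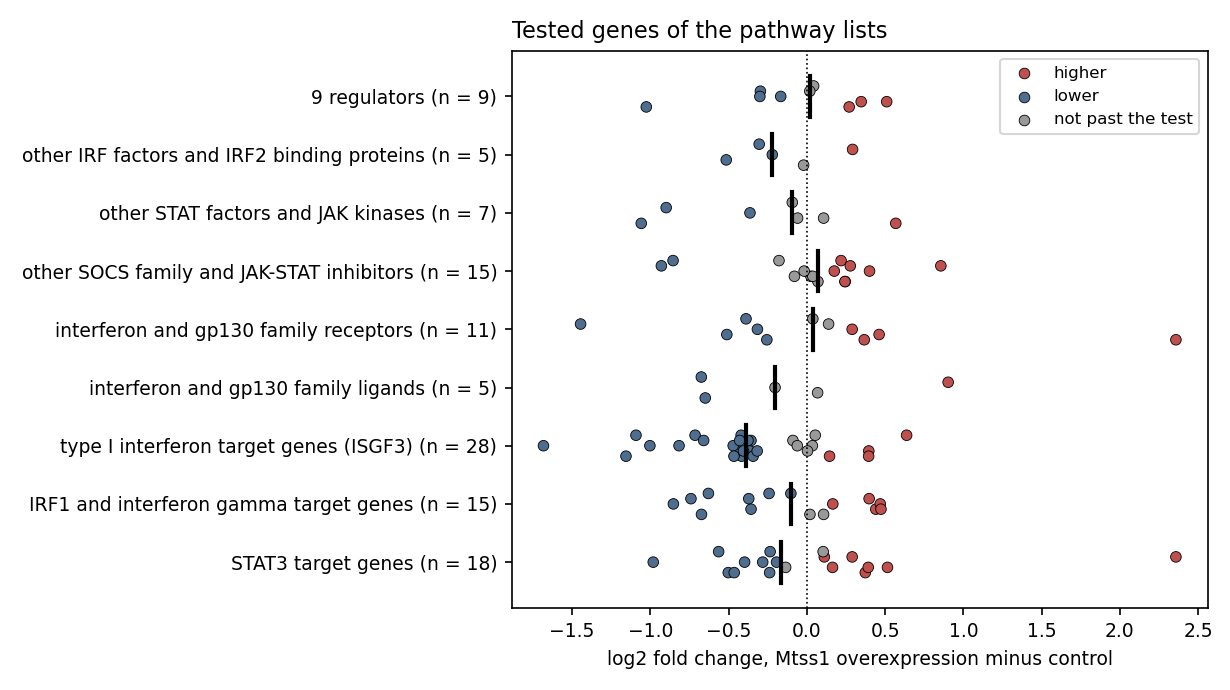
Log2 fold change (horizontal axis, Mtss1 overexpression minus control) of each tested gene in the 9 regulators and in 8 lists of the pathway; colours give the test and vertical bars the list median. The ISGF3 targets have the lowest median, -0.39, and Osmr is the point farthest to the right.

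Across the whole table, the genes whose pattern over the 4 libraries was most like that of Socs1 were Nedd9, Igsf9b and Sfxn2. The root mean square difference of their centred log2(CPM + 1) values from those of Socs1 was 0.024, 0.027 and 0.031. Nedd9, a scaffold protein of focal adhesions, read 11.3 and 10.7 CPM with Mtss1 overexpression and 25.7 and 21.5 CPM in control. With 4 libraries in 2 groups, such likeness mostly reflects a similar difference between the groups.

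Several of the regulators are also expressed in immune cells, so immune markers were examined. Of 21 markers 3 passed the filter and 12 were at 0 in all libraries, Cd3e and Itgam among them. Their summed level was 103 and 106 CPM with Mtss1 overexpression and 31.8 and 29.9 CPM in control, of which Cd68 made up 91.9 and 92.4 CPM with overexpression and 19.8 and 17.4 CPM in control. The pan-leukocyte gene Ptprc was at no more than 0.098 CPM in any library and the macrophage gene Adgre1 at no more than 0.063 CPM. Of 5 endothelial markers 1 passed the filter, with summed levels of 1.58 and 2.08 CPM with overexpression and 1.71 and 1.66 CPM in control. Any part of these cells in the results was not tested.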

How the data were processed

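The authors deposited 1 table of gene values for 4 RNA sequencing libraries, 2 of Mtss1-overexpressing and 2 of control Py8119 cells. FastQC 0.11.2, STAR, RSEM and the build mm10 are named, per the submitters' processing notes, with no roles or settings. The deposited values were read as CPM, an assignment made from the values, whose columns sum to between 982876.9 and 1016225.5, and what scaled them is not stated. The most common nonzero value of a library was taken as a start for the CPM of 1 read and refined on larger values near whole reads. Of the nonzero values, the highest left out, 79.8% to 80.9% were whole reads within 0.005, so no count test was used as the main test.

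The 12510 genes that reached 1 CPM in 2 or more libraries entered limma 3.58.1 (lmFit, eBayes with trend; R 4.3.3) as log2(CPM + 1), with 2 residual degrees of freedom and a median of 19.96 added by the prior. P-values were adjusted by Benjamini-Hochberg over all tested genes, with a threshold of 0.05. Where a listed symbol had several rows, the row of highest mean was taken. Depth limits the precision of the lowest genes: 3 reads correspond to 0.138 to 0.189 CPM. Levels per kilobase used the longest APPRIS principal transcript of GENCODE M21 (mm10), whose identifiers matched 50376 of the genes. Promoter sequences are RefSeq's (GRCm38.p6).

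The members and lists were chosen with earlier results of these data known. The rule for names gave all 9 members, Mtss1, the largest called changes of each pathway list (up to 3 in each direction), and the 3 genes most like the called member with the largest change. Some list genes that meet this rule are not reported here. No set test was run. The alternatives were limma-voom on recovered expected counts, other scalings, filters and pseudocounts, the replicate number as a block, and leaving out each library.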

Additional observations from a re-analysis of the deposited data

How the results depend on the processing

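The 7 called regulators kept their direction and passed the test in all 12 alternatives. Socs1 ranged most, from -1.16 to -0.68 on the log2 scale, with the weakest value at a pseudocount of 5, and the others moved by less. Stat3 and Jak1 passed in none, and their sign changed without overexpression 2. Leaving out 1 library at a time gave log2 fold changes of -0.0075 to 0.045 for Stat3 and of -0.017 to 0.103 for Jak1, the lowest of each without overexpression 2. Such fits leave 1 library in a group, which is assumed to vary like the other group. The count of regulators stayed at 3 higher and 4 lower in all 12. Over all genes 3317 to 3634 were higher and 3621 to 3971 lower when a library was left out, against 3991 and 4282 with all 4. Scaling by column sum gave 4362 higher and 3888 lower, and limma-voom 4362 and 3853.

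Some small list counts moved by over 1.5 times. The number of other STAT factors and JAK kinases that rose was 2 with limma-voom and 2 with scaling by column sum, where Jak3 was added. With no expression filter 0 other IRF genes, 4 STAT3 targets and 3 ligand genes rose, the added ligands being Ifnb1 and Ctf1. Leaving out libraries gave 0 to 1 other IRF genes higher, 1 to 2 STAT and JAK genes higher, 4 to 6 STAT3 targets higher, 1 to 2 immune markers higher and 0 to 1 lower. The replicate block, using a number that the labels do not tie to a shared culture or day, gave 3 regulators higher and 4 lower and 4040 and 4337 genes in all. It changed no call among the 9. The deviations of same-numbered libraries correlated at -0.02. Depth limits Socs1 most, at 75 to 230 reads per library.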
